A study of Mus musculus with 12 samples.

Results

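Genes for dopamine and adenosine signalling in medium spiny neurons, the projection neurons of the striatum, were followed in basal forebrain and cerebral cortex of DKO mice, which lack Psen2, and of Con mice. The set is Drd1, Drd2, Adora2a, Ppp1r1b, Rgs9, Pde10a, Pde1b, Adcy5 and Gng7. Its members were taken by name: every probe that the array's annotation assigns to these 9 genes was used, which gave 17 probes of the 56568 analysed, against 37306 gene names in all. All 17 probes were well above background on all 12 arrays, so no member was lost to a filter on dim signal. RNA was hybridised to Agilent 1-colour mouse arrays (SurePrint G3 Mouse Gene Expression v2), 1 array for each region of each mouse, with 3 mice of each genotype. DKO mice carried ChatCre and no intact Psen2 (PS2-/-). Con mice had no Cre and were PS2+/-, so that they are heterozygous for Psen2 and not wild type. All mice were 2 months old and labelled male. Cre is driven by Chat, the gene of the enzyme that makes acetylcholine, so that Cre acts in cholinergic neurons, on a homozygous floxed allele that all mice of both genotypes carry, whereas Psen2 is missing from every cell of DKO mice. The comparisons ask how gene expression in the basal forebrain and the cortex differs between these genotypes.

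Medium spiny neurons come in 2 main classes. Those of the direct pathway carry the D1 receptor, which raises cyclic AMP through the G protein Golf and adenylyl cyclase 5, and those of the indirect pathway carry the D2 receptor, which lowers cyclic AMP, together with the A2a adenosine receptor, which raises it. Cyclic AMP activates protein kinase A, which phosphorylates DARPP-32, the product of Ppp1r1b, and thereby turns it into an inhibitor of protein phosphatase 1, while phosphodiesterases break the cyclic nucleotides down. The basal forebrain, which holds the cholinergic neurons that project to the cortex, lies next to the ventral striatum.

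Promoter windows of RefSeq (build GRCm38.p6) were matched by symbol for 7 of the 9 members. Those of Drd1, Drd2, Adcy5 and Rgs9 are shown. These 4 genes stand for the 2 receptors of opposite sign, the cyclase they act on and a protein that speeds the shut-off of G protein signals. Each window holds the 250 bases before the gene's most upstream start in the table, read 5′ to 3′ on the gene's strand. Capitals mark matches to the GC box GGGCGG or the TATA box TATAAA on either strand, and the Drd1 window holds neither. The windows lie at chr13:54055659-54055908 (minus strand, Drd1), chr9:49340153-49340402 (plus strand, Drd2), chr16:35154614-35154863 (plus strand, Adcy5) and chr11:109298182-109298431 (minus strand, Rgs9).
Drd1: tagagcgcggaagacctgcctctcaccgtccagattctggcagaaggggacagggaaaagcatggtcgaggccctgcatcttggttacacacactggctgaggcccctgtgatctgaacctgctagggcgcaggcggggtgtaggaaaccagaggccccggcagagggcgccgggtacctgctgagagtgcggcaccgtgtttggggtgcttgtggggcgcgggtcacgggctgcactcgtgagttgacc
Drd2: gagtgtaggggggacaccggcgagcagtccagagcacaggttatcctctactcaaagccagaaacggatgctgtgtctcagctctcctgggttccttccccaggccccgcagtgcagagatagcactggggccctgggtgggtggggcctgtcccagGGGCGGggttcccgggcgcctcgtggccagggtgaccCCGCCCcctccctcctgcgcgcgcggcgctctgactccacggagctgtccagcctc
Adcy5: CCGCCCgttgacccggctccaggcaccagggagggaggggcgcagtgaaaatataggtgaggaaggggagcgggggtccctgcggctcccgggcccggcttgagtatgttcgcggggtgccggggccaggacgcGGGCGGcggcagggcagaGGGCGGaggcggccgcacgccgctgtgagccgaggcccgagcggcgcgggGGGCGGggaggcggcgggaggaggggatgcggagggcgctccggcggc
Rgs9: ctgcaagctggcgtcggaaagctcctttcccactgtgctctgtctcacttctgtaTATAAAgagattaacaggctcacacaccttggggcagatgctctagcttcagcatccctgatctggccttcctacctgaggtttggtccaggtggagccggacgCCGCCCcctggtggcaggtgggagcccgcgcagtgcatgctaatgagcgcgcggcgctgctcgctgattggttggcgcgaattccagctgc
Neither the cyclic AMP response element TGACGTCA nor its short form TGACG, which is part of it, was found on either strand in any of the 7 windows, whereas 1.6% and 17.8% of the 27025 mouse windows of the same length hold them. The GC box was found in 6 of 7 windows, against 33% of all windows, with 4 matches in Adcy5, 5 in Gng7 and none in Drd1. The TATA box was found in Rgs9 alone, against 13% of all windows. Between 59.6% (Rgs9) and 78.0% (Adcy5) of the bases of these windows were G or C, against a median of 52.0% over all windows. A match is a description of the letters and not a binding site. In mm9, the build of the array files, the brightest probe of Drd1 is at chr13:54146585-54146644, that of Drd2 at chr9:49215047-49215106, that of Adora2a at chr10:74797461-74797520, that of Ppp1r1b at chr11:98218965-98219024 and that of Rgs9 at chr11:109086669-109086728. Those of Pde10a, Pde1b, Adcy5 and Gng7 are at chr17:9174995-9175054, chr15:103360424-103360483, chr16:35304398-35304457 and chr10:80411369-80411428.

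Levels are given as log2 of the processed signal minus the 75th percentile of that array, so that 0 is the level of that percentile, and levels of different genes are not compared because each probe has its own brightness. Between 68.9% and 74.97% of all probes were well above background on an array, and arrays of the same group correlated at r = 0.985 to 0.995. Psen2, the gene deleted in DKO mice, lay at -1.86, -1.44 and -1.25 in DKO basal forebrain, against 0.39, 0.25 and 0.42 in Con basal forebrain, and at -1.70, -1.59 and -1.67 in DKO cortex, against 0.42, 0.50 and 0.47 in Con cortex. The genotype labels were thus borne out for Psen2, while bulk tissue cannot show a deletion that is limited to cholinergic neurons. The sex labels were not borne out: DKO mice 1 and 3 had Xist, expressed from the inactive X chromosome, at -2.32 to -1.53 and the Y-linked Ddx3y at -8.99 to -8.47 in both regions, whereas the other 4 mice had Xist at -9.14 to -6.48 and Ddx3y at -1.55 to -1.11. Eif2s3y and Uty, also Y-linked, went with Ddx3y, but Kdm5d, a further Y-linked gene, did not. It was well above background on all 12 arrays, at -1.20 to 0.04 in DKO mice 1 and 3 and -1.06 to 0.15 in the others. Sex-linked RNA is therefore unbalanced between the genotypes, and values without DKO mice 1 and 3 are given beside the genotype and region results. The region labels were borne out by 9 of 9 cholinergic neuron markers higher in basal forebrain in each genotype, against 19.3% (DKO) and 18.5% (Con) of all genes. Chat was higher by 2.16 in DKO and 1.95 in Con mice. Of 11 cortical excitatory neuron markers, 10 (DKO) and 9 (Con) were lower there, against 20.6% and 30.5% of all genes. Of 6 choroid plexus genes, 5 (DKO) and 4 (Con) were also lower there and 1 was higher in each genotype. The source of this difference was not tested. Slide 1 held all 6 basal forebrain arrays and cortex arrays of DKO mice 1 and 2, and slide 2 held the other 4 cortex arrays. Each value comes from tissue of 1 mouse, with n = 3 mice in each group.

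All 9 members were higher in basal forebrain than in cortex, in DKO mice and in Con mice alike. The median difference was 1.78 on the log2 scale in DKO mice and 1.53 in Con mice, against medians over all genes tested of -0.04 and -0.09. In the 12-array limma fit with Benjamini-Hochberg adjustment, 9 of 9 members were called higher at an adjusted p under 0.05 in each genotype, where the share of all genes called higher was 19.3% in DKO and 18.5% in Con mice (39.9% and 49% in either direction). For each member all 6 basal forebrain arrays lay above all 6 cortex arrays, which held for 12.3% of the genes tested. Among all genes, the members' differences stood between percentile 91.6 (Pde1b) and 98.2 (Rgs9) in DKO mice, and between 95.5 (Pde1b) and 99.1 (Pde10a) in Con mice. In bulk tissue, more medium spiny neurons and more RNA of these genes per neuron cannot be told apart.

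**Figure D1:**
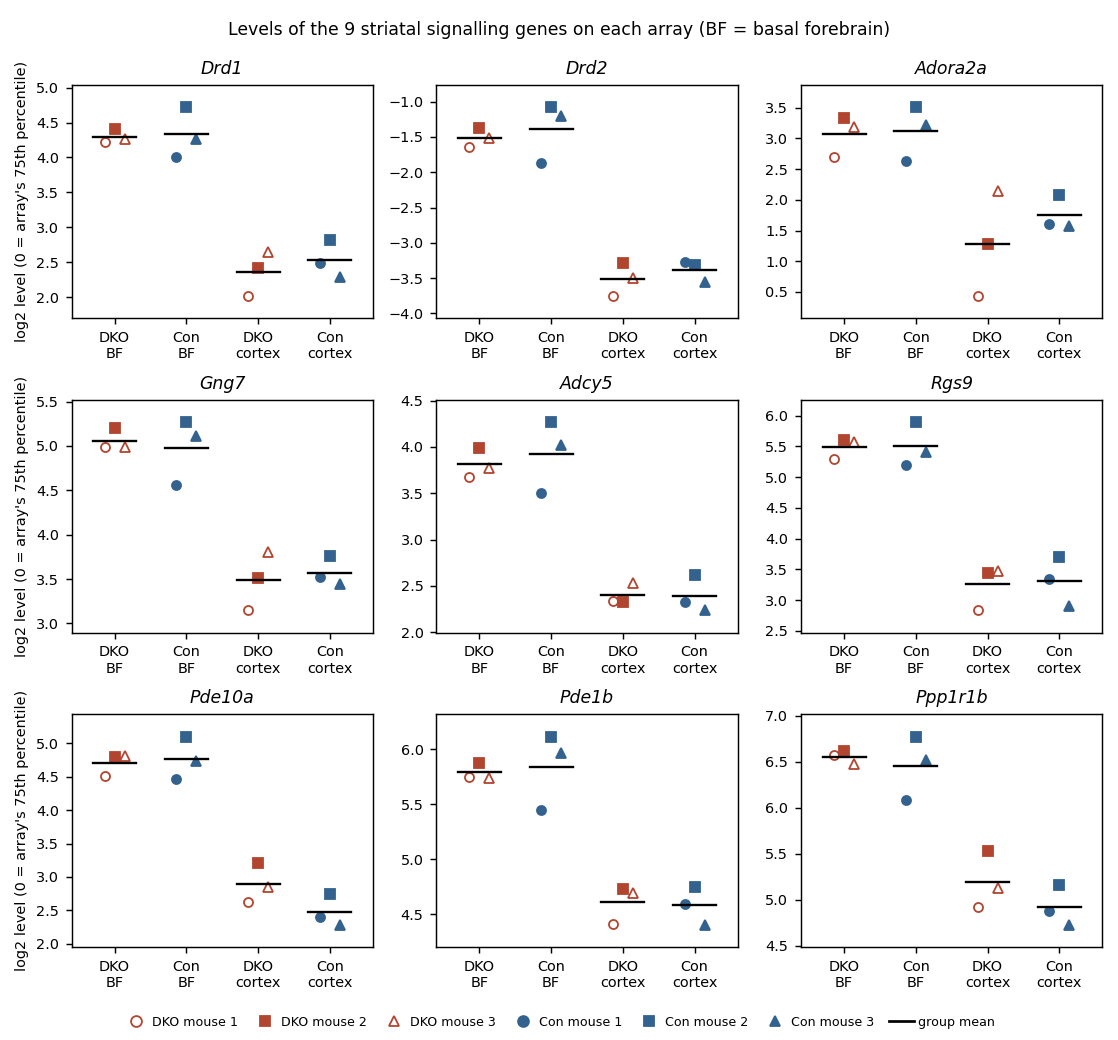
Level of each of the 9 genes (log2, 0 is the array's 75th percentile) on the 12 arrays, in DKO and Con basal forebrain (BF) and DKO and Con cortex, each panel with its own scale. Symbols are mice, black lines are group means over 3 mice, and open symbols are DKO mice 1 and 3, whose sex-linked RNA went against the label. In every panel the 6 basal forebrain arrays lie above the 6 cortex arrays, and DKO and Con arrays of the same region overlap.

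Among the receptors, Drd1, the dopamine D1 receptor of the direct pathway, lay at 4.22, 4.41 and 4.27 in DKO basal forebrain, 4.01, 4.72 and 4.27 in Con basal forebrain, 2.02, 2.41 and 2.65 in DKO cortex and 2.49, 2.82 and 2.29 in Con cortex. Its lowest basal forebrain array was thus well above its highest cortex array, while the genotypes overlapped within each region. The difference between regions was 1.94 ± 0.19 in DKO mice (SE, limma adjusted p = 1.23e-05, 3.83-fold) and 1.80 ± 0.19 in Con mice (SE, limma adjusted p = 2.30e-05, 3.48-fold). Drd2, the dopamine D2 receptor of the indirect pathway, was measured at -1.64, -1.37 and -1.51 in DKO basal forebrain, -1.86, -1.08 and -1.21 in Con basal forebrain, -3.75, -3.29 and -3.50 in DKO cortex and -3.27, -3.31 and -3.55 in Con cortex. The cortex values of both genotypes lay within a narrow band, and the basal forebrain values of Con mice spread around those of DKO mice. Drd2 was higher in basal forebrain by 2.00 ± 0.20 in DKO mice and by 1.99 ± 0.20 in Con mice (SE), with limma adjusted p = 1.33e-05 and 1.47e-05. Adora2a, the A2a adenosine receptor that acts against D2 in the same neurons, had 2.70, 3.33 and 3.18 in DKO basal forebrain, 2.63, 3.51 and 3.22 in Con basal forebrain, 0.44, 1.29 and 2.14 in DKO cortex and 1.60, 2.08 and 1.57 in Con cortex. Its cortex values in DKO mice were the most scattered of any member in any group, with an SD of 0.85 over 3 mice, from the lowest cortex value in mouse 1 to the highest in mouse 3. The difference between regions was 1.78 ± 0.35 in DKO and 1.37 ± 0.35 in Con mice (SE, limma adjusted p = 0.00214 and 0.00811), and without Con mouse 3 the Con difference of 1.23 no longer passed (adjusted p = 0.0618).

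Downstream of the receptors stand a G protein subunit, a cyclase and a regulator of G protein signalling. Gng7, the gamma subunit of the striatal G protein Golf, had 4.99, 5.20 and 4.99 in DKO basal forebrain, 4.56, 5.27 and 5.11 in Con basal forebrain, 3.15, 3.51 and 3.80 in DKO cortex and 3.52, 3.76 and 3.45 in Con cortex. DKO and Con values interleaved in both regions, and the gap between regions was 1.57 ± 0.19 in DKO and 1.41 ± 0.18 in Con mice (SE, limma adjusted p = 4.58e-05 and 0.000108). Adcy5, the main adenylyl cyclase of the striatum, was at 3.67, 3.99 and 3.78 in DKO basal forebrain, 3.50, 4.27 and 4.02 in Con basal forebrain, 2.33, 2.33 and 2.53 in DKO cortex and 2.33, 2.62 and 2.24 in Con cortex. Cortex values lay close together in both genotypes, and basal forebrain was higher by 1.42 ± 0.17 in DKO and 1.53 ± 0.17 in Con mice (SE, limma adjusted p = 5.03e-05 and 2.82e-05). Rgs9, which speeds the shut-off of G protein signals and has a long striatal form, gave 5.29, 5.60 and 5.57 in DKO basal forebrain, 5.19, 5.90 and 5.42 in Con basal forebrain, 2.84, 3.45 and 3.48 in DKO cortex and 3.35, 3.70 and 2.905 in Con cortex. This was the largest gap of the 9 in DKO mice, at 2.23 ± 0.23 (SE, limma adjusted p = 1.61e-05, 4.70-fold), and it was 2.18 ± 0.23 in Con mice (SE, limma adjusted p = 2.04e-05, 4.54-fold).

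The enzymes that break down cyclic nucleotides and the effector DARPP-32 followed the same order of regions. Pde10a, the phosphodiesterase of medium spiny neurons that acts on cyclic AMP and cyclic GMP, lay at 4.52, 4.80 and 4.81 in DKO basal forebrain, 4.46, 5.10 and 4.74 in Con basal forebrain, 2.63, 3.21 and 2.85 in DKO cortex and 2.40, 2.75 and 2.28 in Con cortex. The difference was 1.81 ± 0.18 in DKO mice and 2.29 ± 0.18 in Con mice (SE, limma adjusted p = 1.33e-05 and 2.53e-06), and it was the largest of the 9 in Con mice. Pde1b, a phosphodiesterase switched on by calcium and calmodulin, lay at 5.74, 5.88 and 5.74 in DKO basal forebrain, 5.45, 6.11 and 5.96 in Con basal forebrain, 4.41, 4.73 and 4.69 in DKO cortex and 4.59, 4.75 and 4.404 in Con cortex. It had the smallest gap of the 9, at 1.18 ± 0.15 in DKO (2.26-fold) and 1.26 ± 0.15 in Con mice (2.40-fold), which still passed the test (SE, limma adjusted p = 0.000101 and 5.98e-05). Ppp1r1b, the gene of DARPP-32, was at 6.57, 6.62 and 6.47 in DKO basal forebrain, 6.08, 6.77 and 6.52 in Con basal forebrain, 4.93, 5.53 and 5.13 in DKO cortex and 4.88, 5.17 and 4.73 in Con cortex. Basal forebrain was higher by 1.36 ± 0.18 in DKO mice and by 1.53 ± 0.18 in Con mice (SE, limma adjusted p = 0.000118 and 4.66e-05). The SE of these differences ranged from 0.15 to 0.35, and steps between neighbours in their order were not tested.

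Each mouse gave both regions, so the difference can also be read within a mouse. It was positive for every member in all 6 mice, from 0.86 for Pde1b in Con mouse 1 to 2.51 for Rgs9 in Con mouse 3. Con mouse 1 had the smallest difference of the Con mice for all 9 members and Con mouse 3 the largest, for example 1.41 against 2.35 for Drd2. The share of all genes with this order of mice was not counted. Among DKO mice, Adora2a ranged most widely, with 2.26, 2.04 and 1.05 in mice 1, 2 and 3. In Con mice region and slide cannot be told apart, because their regions were hybridised on different slides. In DKO mice 1 and 2 both regions shared slide 1, and there 9 of 9 members passed, with differences of 1.24 (Pde1b) to 2.30 (Rgs9), against 11.9% of all genes called higher. With DKO mice 1 and 3 left out, DKO mouse 2 alone gave 1.09 to 2.15 and 8 of 9 members passed under the spread of the Con mice, against 5.19% of all genes called higher. The exception was Ppp1r1b, at 1.09 (limma adjusted p = 0.0644).

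**Figure D2:**
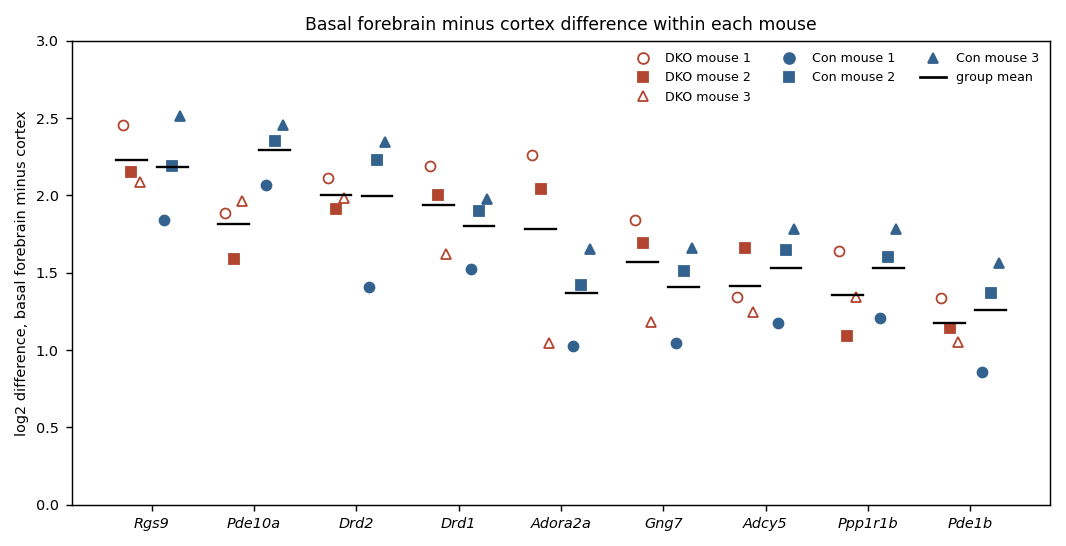
Basal forebrain minus cortex difference (log2) of each gene within each mouse, DKO mice to the left of Con mice, genes ordered by their mean difference. Symbols are mice, black lines are means over 3 mice, and open symbols are DKO mice 1 and 3. All values are above 0, between 0.86 and 2.51.

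Probes of the same gene gave the same answer. The 4 genes with more than 1 probe were Drd1 (2 probes), Ppp1r1b (2), Gng7 (3) and Rgs9 (5), and all 17 probes tested on their own were called higher in basal forebrain in each genotype, with differences of 1.18 to 2.41 in DKO mice and 1.26 to 2.34 in Con mice. Among all probes tested, 21.4% (DKO) and 21.1% (Con) were called higher. The 5 Rgs9 probes, of which 2 overlap on chr11, ranged from 2.16 to 2.41 in DKO and from 1.99 to 2.34 in Con mice. The Gng7 probes differed more, from 1.52 to 2.07 in DKO and from 1.41 to 2.12 in Con mice. None of the 17 probes was called by genotype in either region, where 0.0321% (basal forebrain) and 0.0102% (cortex) of all probes were. The signs of the small genotype values disagreed between probes of Rgs9, Gng7 and Ppp1r1b in basal forebrain. In cortex they disagreed between probes of Rgs9 (-0.21 to 0.17) and of Drd1 (-0.17 to 0.01).

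No member passed the test between DKO and Con mice in the basal forebrain. In the limma fit of its 6 arrays 0 of 9 were called, where 8 of 26102 genes were (0.0306%), and no member had an unadjusted p under 0.05, against 4.39% of all genes. The groups overlapped for each member, while they did not for 9.95% of genes. The differences, DKO minus Con, ran from -0.12 (Drd2) to 0.09 (Ppp1r1b) with a median of -0.05, against 0.00 over all genes, and adjusted p lay between 0.975 and 0.997. Their unadjusted 95% intervals reached from -0.64 to 0.54 for Adora2a, the widest, and from -0.46 to 0.34 for Pde10a, the narrowest, so that changes of this size cannot be told from none with 3 mice a group. Without DKO mice 1 and 3, DKO mouse 2 alone differed from the Con mean by 0.01 to 0.22, with no spread between DKO mice to set this against.

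In the cortex no member passed either, although the values were less even. None of the 9 was called, where 3 of 25798 genes were (0.0116%), and the groups overlapped for each member, while they did not for 22.4% of genes. Pde10a was highest in DKO mouse 2 and lowest in Con mouse 3, with the DKO mean at 2.896 ± 0.29 and the Con mean at 2.48 ± 0.24 (SD, n = 3 each). Its difference of 0.42 ± 0.17 (SE, 95% interval 0.03 to 0.81) was the only one with an unadjusted p under 0.05, a bound that 18.9% of all genes met, and its limma adjusted p was 0.261. Adora2a stood at -0.46 ± 0.38 (SE, 95% interval -1.34 to 0.42, limma adjusted p = 0.475). Ppp1r1b stood at 0.27 ± 0.16 and the other 6 members between -0.17 (Drd1) and 0.03 (Pde1b). These values moved with single mice and with slide. Without DKO mice 1 and 3, Pde10a at 0.74 (adjusted p = 0.0229) and Ppp1r1b at 0.60 (adjusted p = 0.0307) passed in limma, in a fit that assumes DKO mouse 2 to vary like the Con mice and in which 29.4% of all genes were called. Without DKO mouse 3, Adora2a at -0.89 passed (adjusted p = 0.0301), with 37.4% of all genes called, whereas without DKO mouse 1 it was at -0.04 (adjusted p = 0.958). With 1 mouse left out, Pde10a ranged from 0.26 to 0.56 and Ppp1r1b from 0.10 to 0.40, and neither passed. With slide as a term, which compares DKO mouse 3 with the Con mice on slide 2, Pde10a was at 0.37, Adora2a at 0.39, opposite in sign, and none passed, with 0.0155% of all genes called.

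**Figure D3:**
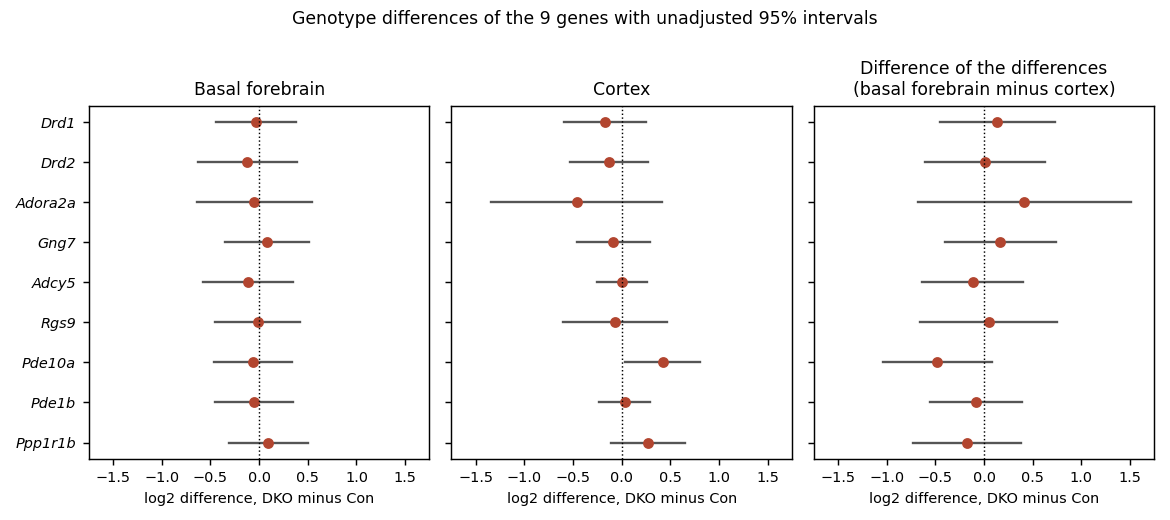
Genotype difference (log2, DKO minus Con) of each gene in basal forebrain and in cortex, and the difference between these differences. Points are limma estimates from 3 mice a group and lines are unadjusted 95% intervals. The difference between these differences comes from a fit that does not pair the regions of a mouse. The basal forebrain estimates lie between -0.12 and 0.09, and Pde10a in cortex, at 0.42, is the only interval that does not cross 0.

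Whether the genotype difference itself differed between regions was tested as an interaction over all 12 arrays. They were taken as 4 groups, without pairing the 2 regions of a mouse. Again 0 of 9 members were called, as was no gene at all (0%), although 8.36% of 26959 genes had an unadjusted p under 0.05 in limma. Pde10a had the largest value at -0.48 ± 0.26 (SE, 95% interval -1.04 to 0.08, adjusted p = 0.562) and Adora2a the largest positive value at 0.41 ± 0.50 (SE, adjusted p = 0.753). With the mouse as a block, Pde10a had an SE of 0.14 (limma unadjusted p = 0.00873, adjusted p = 0.504), and no gene was called. Averaged over both regions of a mouse, 0 of 9 members passed, against 0.161% of genes called, with differences of -0.26 (Adora2a) to 0.18 (Ppp1r1b). Without DKO mice 1 and 3, Ppp1r1b and Pde10a were both at 0.38 over both regions, and their interaction values were -0.44 and -0.71. Again 0 of 9 members passed in either comparison, with 0.0395% and 0.0542% of all genes called. Among red cell genes, in the mean over both regions, 5 of 5 were called higher in DKO mice, as were 0.149% of all genes, with a mean list level of 3.19 to 4.88 on DKO arrays and 1.73 to 2.34 on Con arrays. Their part in the members' values was not tested.

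Within a region the members' levels varied together from array to array, across genotypes. In basal forebrain Con mouse 2 was the highest array for 9 of 9 members and Con mouse 1 the lowest for 9 of 9. The share of all genes with the same highest or lowest array was not counted. The member mean was 4.01, 4.27 and 4.14 in DKO mice and 3.78, 4.51 and 4.23 in Con mice. Each member's correlation with the mean of the other 8 was between 0.88 (Ppp1r1b) and 0.97 (Adcy5) over these 6 arrays. The members share the tissue sample and scaling of each array, and such correlations were not computed for other sets of genes. In cortex the order was looser. DKO mouse 1 was lowest for 5 members and Con mouse 3 for 4, Con mouse 2 was highest for 4, and the correlations ran from 0.43 (Pde10a) to 0.96 (Rgs9). Pde10a and Ppp1r1b were both highest in DKO mouse 2 there, and Adora2a and Gng7 in DKO mouse 3. The spread between Con mice in basal forebrain, with SDs of 0.32 to 0.45, exceeded that between DKO mice, with SDs of 0.07 to 0.33, for all 9 members. With 3 mice a group this was not tested, and the share of all genes with this order of SDs was not counted.

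**Figure D4:**
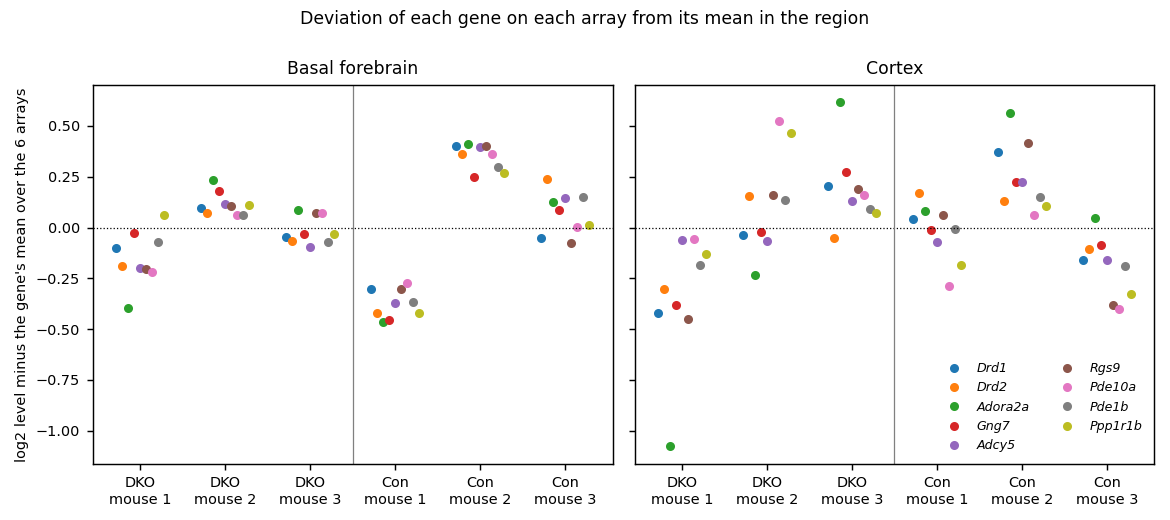
Deviation of each gene's log2 level on each array from its mean over the 6 arrays of the region, DKO mice to the left of Con mice. Points are genes. In basal forebrain all 9 points of Con mouse 1 are below 0 (-0.46 to -0.27) and all 9 of Con mouse 2 above 0 (0.25 to 0.41), whereas in cortex the points of an array scatter more widely, with Adora2a in DKO mouse 1 at -1.08.

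Other genes of the same neurons were also mostly higher in basal forebrain. Of 25 further medium spiny neuron genes, 22 were higher in basal forebrain in each genotype and the same 22 in both. Among all genes 19.3% (DKO) and 18.5% (Con) were called higher. The medians of the 25 were 1.38 in DKO and 1.28 in Con mice. Without DKO mice 1 and 3, the median was 1.32 in DKO mouse 2 alone, with no spread between DKO mice to set this against. With the array median as the scale 19 were higher and 1 lower in DKO and 22 higher and 1 lower in Con mice. Then 2974 of all 25916 genes were higher and 10123 lower in DKO mice. In Con mice 3195 of 26592 were higher and 8490 lower. Those with the smallest p in DKO mice were Rasgrp2, an exchange factor for the small GTPase Rap1, at 1.43 (Con 1.29), Six3, a transcription factor of striatal development, at 2.94 (Con 3.39), Tac1, the substance P precursor of direct pathway neurons, at 2.43 (Con 2.496), and Isl1, a transcription factor of direct pathway and cholinergic neurons, at 3.94 (Con 3.19). The 3 that did not pass, named after their values were seen, were the transcription factor gene Foxp1 (-0.07 in DKO, 0.02 in Con), the M4 muscarinic receptor gene Chrm4 (0.31 and 0.22) and the mu opioid receptor gene Oprm1 (-0.10 and -0.32). By genotype 0 of 25 passed in either region. The mean level of these 25 genes in basal forebrain was 2.25, 2.37 and 2.31 in DKO mice and 2.08, 2.56 and 2.31 in Con mice, lowest and highest in the same Con mice as the members. The mean of the septum, preoptic area and hypothalamus markers in basal forebrain was lowest in Con mouse 2, where the members were highest. Avp, Oxt and Gal, named after their values were seen, were lowest there too, but the rest of the 12 measured genes in other mice. The mean over the 12 genes was 0.69, 0.07 and 0.47 for DKO mice 1 to 3 and 0.53, -0.44 and 0.02 for Con mice 1 to 3. In each genotype 7 of 12 were higher in basal forebrain. Cortical excitatory neuron markers, 11 genes, had means of -0.14, -0.57 and -0.87 on the DKO and -0.07, -0.83 and 0.15 on the Con basal forebrain arrays. In cortex DKO mouse 1 was also lowest for the mean of 9 cholinergic markers, at -2.74. DKO mouse 2, on slide 1 like DKO mouse 1, had -2.25. On slide 2 the mean was -1.93 in DKO mouse 3 and -1.92 to -1.79 in Con mice. The part of slide in these means was not tested. The part of tissue composition in the members' values was not tested.

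The rest of the dopamine and cyclic AMP pathway did not follow the members as a group. Of 42 further pathway genes, 6 were higher and 22 lower in basal forebrain in DKO mice, and 8 were higher and 24 lower in Con mice, where 20.6% (DKO) and 30.5% (Con) of all genes were called lower. The medians of the list were -0.32 and -0.26. Of 6 genes of all neurons, 3 were lower and 0 higher in each genotype, with medians of -0.33 (DKO) and -0.42 (Con). Gnal, the alpha subunit of Golf, was higher in basal forebrain by 1.196 in DKO and 1.23 in Con mice. Adcy1, a cyclase stimulated by calcium and calmodulin, was lower there, with differences of -2.38 in DKO and -2.23 in Con mice, the opposite of Adcy5. Adora1, the A1 adenosine receptor, was also lower, with -1.02 in DKO and -0.89 in Con mice, the opposite of Adora2a, and so was Gnai1, an inhibitory G protein alpha subunit, with -0.62 in DKO and -0.47 in Con mice. The limma adjusted p of these 4 genes lay between 1.00e-08 and 0.000369. Counts in this list depended on scaling and on mice: with the array median as the scale they were 3 higher and 27 lower in DKO and 5 higher and 24 lower in Con mice, with quantile normalization or the authors' values 10 higher and 16 lower in DKO and 12 higher and 22 lower in Con mice, and without DKO mice 1 and 3 they were 2 higher and 8 lower in DKO mice, with 13.1% of all genes called and 7.91% called lower. The array median gave 2974 higher and 10123 lower of all 25916 genes in DKO mice. In Con mice it gave 3195 and 8490 of 26592. Quantile normalization gave 5143 and 5833 in DKO mice, and 5880 and 7722 in Con mice. Of 15 other phosphodiesterases, 7 were higher and 2 lower in DKO mice, where 19.3% and 20.6% of all genes were. In Con mice 8 were higher and 4 lower, against 18.5% and 30.5%. Without DKO mice 1 and 3 the median of these 15 was 0.27 in DKO mouse 2 alone. With the array median 5 were higher and 4 lower in DKO mice, where the list's median turned to -0.096 from 0.19. Pde1a, a relative of Pde1b, was lower in basal forebrain, with -1.11 in DKO and -0.89 in Con mice, while Pde11a (1.12 and 0.59), Pde3a (1.34 and 0.91) and Pde7b (0.93 and 1.26) were higher. By genotype none of the 42 pathway genes or the 15 phosphodiesterases was called in either region. The smallest unadjusted p was that of Pde11a in basal forebrain (0.51 ± 0.12, SE, limma adjusted p = 0.815) and that of Adcy8 in cortex (-0.61 ± 0.17, SE, limma adjusted p = 0.261). On slide 1, cortex Adcy8 lay at -1.13 and -1.14 in DKO mice 1 and 2. On slide 2 it lay at -0.52 in DKO mouse 3 and -0.36 to -0.27 in Con mice. The part of slide in this value was not tested.

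**Figure D5:**
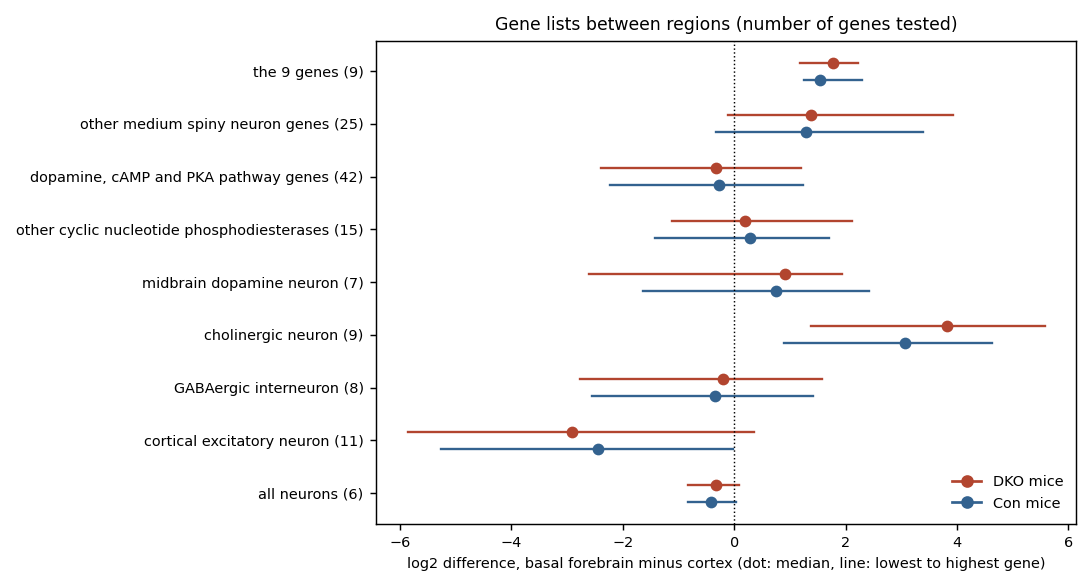
Basal forebrain minus cortex difference (log2) of gene lists, DKO mice above Con mice within each list. Points are medians over the genes tested, whose number stands in brackets, and lines run from the lowest to the highest gene. The 9 genes lie wholly above 0, as do the cholinergic neuron markers, while the lists of pathway genes and other phosphodiesterases span 0.

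The genes whose pattern was most like the members' mean were named by their correlation over the 12 arrays after each region's mean was subtracted, among 16835 genes. They were Ido1, an enzyme of tryptophan breakdown (r = 0.98), Clec12a, a C-type lectin receptor (0.97), Scn4b, a sodium channel beta subunit (0.96), Gpr6, an orphan receptor of indirect pathway neurons (0.95), and Ptpn7, a tyrosine phosphatase (0.94). Scn4b and Gpr6 are in the list of further medium spiny neuron genes. Over the 6 basal forebrain arrays alone r was 0.97, 0.99, 1.00, 0.99 and 0.95 in that order, and over the 6 cortex arrays 0.99, 0.96, 0.93, 0.90 and 0.94. Like the members, all 5 were higher in basal forebrain in both genotypes, from 0.97 (Ido1) to 2.08 (Ptpn7) in DKO and from 0.91 (Scn4b) to 2.16 (Ptpn7) in Con mice, and none was called by genotype. Ranked without subtraction, where the gap between regions adds to the likeness, Gpr6, Ptpn7, Clec12a and Tmem158 were among the nearest genes. Tmem158 was higher in basal forebrain by 1.18 in DKO and 1.08 in Con mice.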

How the data were processed

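Total RNA of basal forebrain and cortex of 6 mice was labelled with Cy3 and hybridised to 12 arrays. Per the file headers, intensity values were extracted by the authors with Agilent Feature Extraction 10.7.1.1 (protocol GE1_107_Sep09), which subtracts background and detrends each array; its flags (0 or 1) were used as deposited for spots well above background and outliers. The authors' deposited log2 normalized values, identical in their sorted form on all 12 arrays, served as an alternative. Here log2 of the processed signal minus each array's 75th percentile was used, with the brightest probe for each gene. A gene entered a comparison when 1 or more of the groups compared had it well above background on each of 3 arrays (6 for the mean over regions). limma 3.58.1 in R 4.3.3 (lmFit, eBayes with trend) was tested on simulated data, with Benjamini-Hochberg adjustment over all genes and calls at an adjusted p under 0.05. Genotypes were compared within each region, and as means over both regions of a mouse; regions and the interaction came from 1 fit of 12 arrays. The members and gene lists were chosen with earlier results of these data known. Every probe of the members was described; of other lists up to 4 genes were named by smallest p, of likeness up to 5 genes, and Psen2 and Chat always; some genes under this rule are not reported here. Replicate numbers mark the same mouse across regions, per the titles; deviations of its 2 arrays from their group means correlated at 0.013, 0.185 and -0.049 in DKO and 0.204, 0.256 and 0.319 in Con mice. Alternatives covered background correction, scaling, the filter, probes, trend, blocks, slide and left-out mice. The number of arrays limits precision.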

Additional observations from a re-analysis of the deposited data

How the results depend on the processing

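The region result kept its direction for every member in every alternative run. Its median in DKO mice was 1.498 with the array median as the scale, which moved the median of all genes to -0.32 from -0.04 and the calls to 2974 higher and 10123 lower (4996 and 5341 with the 75th percentile). Its median in Con mice was 2.02 with slide as a term. There the slide effect comes only from DKO cortex, mouse 3 against mice 1 and 2, as it does for the interaction. Calls were lost for Adora2a in Con mice without Con replicate 3 (1.23) and Ppp1r1b in DKO mice without DKO mice 1 and 3 (1.09). The replicate block, which is the mouse here, changed no region call (adjusted p 1.00e-05 to 0.0004 in DKO and 4.81e-06 to 0.00143 in Con mice). Genotype numbers mark different mice (r of deviations -0.417 to 0.364); as a replicate block they left 0 members called and 0 genes, against 8, in basal forebrain. In cortex members called were 0 to 1 with 1 mouse left out. The 1 call came without DKO mouse 3, where genotype and slide cannot be told apart. No genotype value was called with the settings of the report, and values changed sign 25 times in basal forebrain, 23 in cortex, 19 over both regions and 23 for the interaction, among them Adora2a, the largest in cortex; the cause was not tested. Without DKO mice 1 and 3 the sign changed in basal forebrain for Drd1 (0.08), Drd2 (0.01), Adora2a (0.21), Rgs9 (0.10), Pde10a (0.03), Pde1b (0.037) and Adcy5 (0.059), in cortex for Drd2 (0.092), Rgs9 (0.13) and Adcy5 (-0.068), over both regions for Drd2 (0.051), Rgs9 (0.11), Pde1b (0.10) and Gng7 (0.08), and in the interaction for Drd2 (-0.081), Rgs9 (-0.028) and Adcy5 (0.13). With slide as a term, and within slide 2, it changed in cortex for Drd1 (0.12), Adora2a (0.39), Rgs9 (0.16) and Gng7 (0.23); with slide as a term also over both regions for Drd1 (0.03), Adora2a (0.23), Rgs9 (0.11), Pde1b (0.005) and Gng7 (0.12), and in the interaction for Drd1 (-0.15), Drd2 (-0.007), Adora2a (-0.43), Rgs9 (-0.17) and Gng7 (-0.15). The array median turned Gng7 in basal forebrain (-0.012), Rgs9 in cortex (0.009) and Drd1 (-0.03), Drd2 (-0.16), Rgs9 (-0.12) and Gng7 (-0.001) in the interaction. The mean of all probes turned Rgs9 (0.031) and Gng7 (-0.11) in basal forebrain and Gng7 (-0.005) in the interaction, and quantile normalization (-0.10) and the authors' values (-0.10) turned Drd2 in the interaction.

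With 1 mouse left out, ranges that crossed 0 were, in basal forebrain, Drd1 -0.19 to 0.16, Drd2 -0.36 to 0.027, Adora2a -0.29 to 0.14, Ppp1r1b -0.092 to 0.25, Rgs9 -0.17 to 0.18, Pde10a -0.21 to 0.11, Pde1b -0.25 to 0.083, Adcy5 -0.33 to 0.054 and Gng7 -0.13 to 0.23. In cortex they were Drd1 -0.31 to 0.001, Rgs9 -0.27 to 0.14, Pde1b -0.057 to 0.13, Adcy5 -0.077 to 0.11 and Gng7 -0.24 to 0.084. Over both regions they were Drd1 -0.19 to 0.068, Adora2a -0.49 to 0.049, Rgs9 -0.17 to 0.15, Pde1b -0.11 to 0.10, Adcy5 -0.18 to 0.084 and Gng7 -0.12 to 0.12. In the interaction they were Drd1 -0.002 to 0.30, Drd2 -0.29 to 0.18, Rgs9 -0.12 to 0.21, Pde1b -0.29 to 0.067, Adcy5 -0.30 to 0.006 and Gng7 -0.014 to 0.36, and the median of the 9 ran from -0.29 to 0.18.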
